A study of Homo sapiens with 4 samples.

Results

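The TOMM and TIMM genes encode the translocases that carry proteins into mitochondria, and their levels were followed in HEK-293 cells after knockdown of the zinc finger genes ZSCAN5A and ZSCAN5B. The members were taken from the gene table by symbol, as TOMM or TIMM followed by a digit on a placed chromosome, which gave 22 of 24934 rows, 10 TOMM and 12 TIMM genes. TIMM10B and TIMM29, which the table lists under the older symbols FXC1 and C19orf52, fall outside this rule and are described with the other import genes. HEK-293 is an established line derived from human embryonic kidney, and all 4 cultures were transfected with 10 nM of siRNA for 48 h before RNA was collected. One culture each received the ZSCAN5A siRNAs si4 and si5, the ZSCAN5B siRNA si1 or a scrambled siRNA, which served as the only control. Each was sequenced as 1 library, so there was no replicate and no test between treatments, and the only spread between libraries for 1 target is the gap between si4 and si5. Every comparison with the control uses the same control library, so a low or high value in it enters all of them.

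Nearly all mitochondrial proteins are made in the cytosol and imported. The TOM complex in the outer membrane holds the receptors and the TOMM40 channel, the TIM23 complex passes or inserts proteins with a presequence at the inner membrane, the TIM22 complex inserts carrier proteins, and small TIM chaperones escort hydrophobic precursors through the space between the membranes. Growing cells such as HEK-293 depend on this route for their respiratory chain and mitochondrial ribosomes.

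The 3 members with the highest ratio of deposited FPKM to control after ZSCAN5A siRNA, TOMM20, TIMM10 and TOMM22, are shown first by their promoters, together with TIMM8A, the 1 member that was not above control with si5. Each sequence is the RefSeq promoter on GRCh38.p14, 250 bases before to 50 bases after the annotated start, printed 5′ to 3′ on the strand of the gene. Capitals mark exact matches, on either strand, to CCGGAAG (a core bound by ETS factors), TGCGCA (from the NRF1 site), CACGTG (the E-box) and AAGATGGC (from the YY1 site). The TOMM20 window lies at chr1:235128788-235129087 on the minus strand, that of TIMM10 at chr11:57530705-57531004 on the minus strand, that of TOMM22 at chr22:38681707-38682006 on the plus strand and that of TIMM8A at chrX:101348693-101348992 on the minus strand.
TOMM20: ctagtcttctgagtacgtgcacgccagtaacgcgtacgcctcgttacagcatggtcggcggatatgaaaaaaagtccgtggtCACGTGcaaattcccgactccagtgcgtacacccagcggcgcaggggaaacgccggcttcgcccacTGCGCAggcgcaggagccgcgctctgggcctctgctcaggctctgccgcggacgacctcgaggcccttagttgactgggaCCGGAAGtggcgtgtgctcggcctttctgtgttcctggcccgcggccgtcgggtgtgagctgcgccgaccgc
TIMM10: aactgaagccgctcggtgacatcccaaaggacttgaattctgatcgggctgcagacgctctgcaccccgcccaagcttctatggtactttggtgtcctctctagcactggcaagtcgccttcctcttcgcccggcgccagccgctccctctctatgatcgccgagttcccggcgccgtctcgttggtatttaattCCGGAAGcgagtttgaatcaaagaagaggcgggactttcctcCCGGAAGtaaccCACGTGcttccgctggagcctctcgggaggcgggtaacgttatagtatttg
TOMM22: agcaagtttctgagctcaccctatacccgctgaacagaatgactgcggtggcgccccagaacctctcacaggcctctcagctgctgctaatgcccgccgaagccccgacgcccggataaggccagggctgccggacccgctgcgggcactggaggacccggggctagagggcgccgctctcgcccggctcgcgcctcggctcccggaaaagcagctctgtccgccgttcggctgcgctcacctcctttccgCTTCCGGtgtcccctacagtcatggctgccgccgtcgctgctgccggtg
TIMM8A: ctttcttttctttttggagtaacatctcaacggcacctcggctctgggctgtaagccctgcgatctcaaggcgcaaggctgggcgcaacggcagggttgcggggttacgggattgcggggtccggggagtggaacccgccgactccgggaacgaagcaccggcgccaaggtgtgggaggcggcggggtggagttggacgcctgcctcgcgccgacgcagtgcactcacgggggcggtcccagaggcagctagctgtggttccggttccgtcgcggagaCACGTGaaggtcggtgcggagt

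The TOMM20 window held 1 match each to the ETS core, the NRF1 letters and the E-box, and that of TIMM10 held 2 ETS cores and 1 E-box. The TOMM22 window held 1 ETS core, on the opposite strand, and that of TIMM8A held 1 E-box alone. A promoter was given for 20 of the 22 members, without TIMM8B and TOMM5. The ETS core occurred in 8 of these 20, the NRF1 letters in 4, the E-box in 3 and the YY1 letters in 2, and no matches overlapped each other. Among 9142 promoters of genes that reached 1 FPKM the shares were 19.3%, 13.8%, 10.4% and 5.58%, and over all 34796 distinct promoters they were 10.2%, 8.18%, 7.20% and 2.89%. A match of letters describes the sequence and does not show that a factor was bound, and binding at these promoters was not measured here.

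Values are FPKM as the authors deposited them, in which the fragments of a gene are divided by transcript length and by library size. In the control library the members ranged from 0.850 FPKM for TOMM20L to 181 FPKM for TOMM7. Of the 22 members, 21 reached 1 FPKM in at least 1 library, the limit for all counts that follow, and none was listed at 0. TOMM20L, a paralog of the receptor TOMM20, measured 0.895 FPKM after si4, 0.908 after si5, 0.961 after si1 and 0.850 in the control, and is left out of the counts. The median control level of the other 21 was 53.7 FPKM, against 9.95 FPKM over the 13078 features that reached the limit, so import genes were well expressed in these cells. In bulk RNA, fewer cells expressing a gene and less RNA per cell cannot be told apart.

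**Figure D1:**
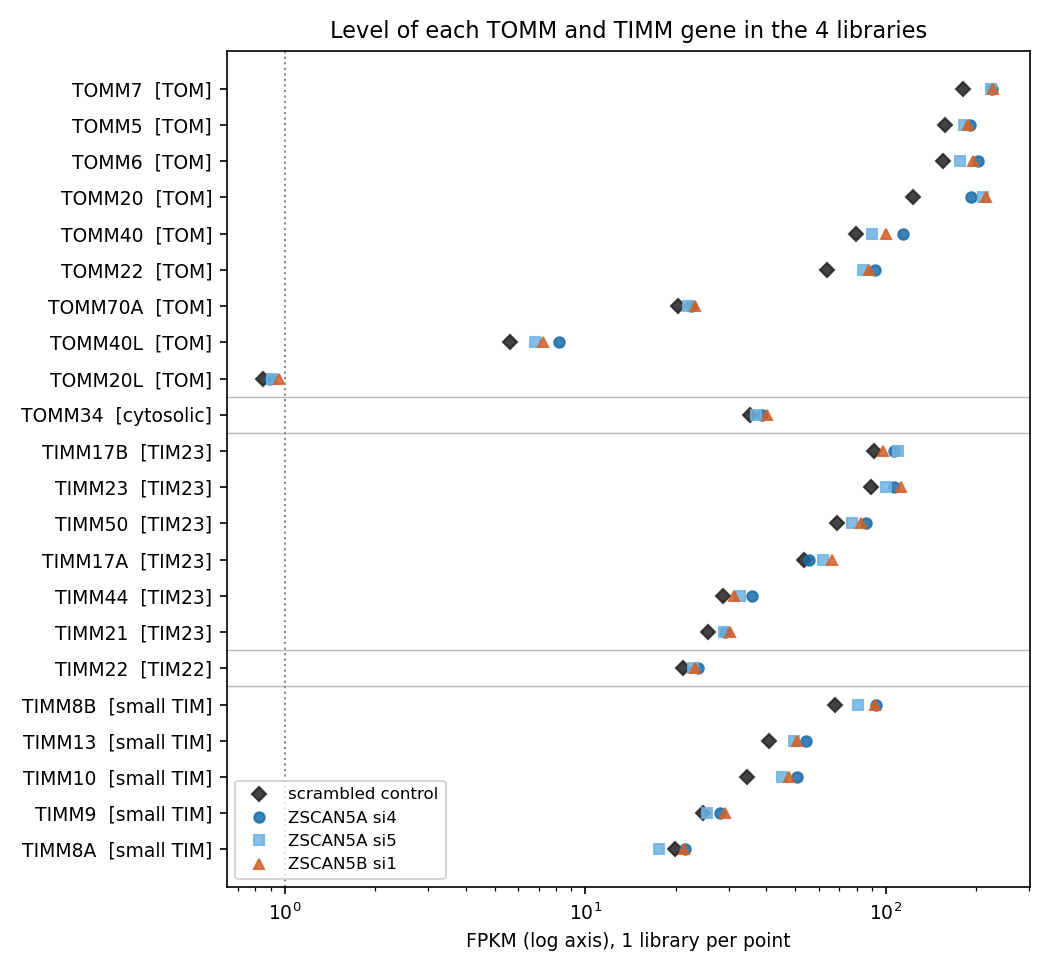
FPKM on a log axis for each of the 22 genes, grouped by complex, with 1 point for each of the 4 libraries and a dotted line at 1 FPKM. The control (diamond) is the lowest of the 4 points for 20 of the 21 genes above the line, and TIMM8A is the exception.

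The targeted genes were read first. ZSCAN5A measured 0.730 FPKM after si4 and 0.713 after si5, against 2.53 after si1 and 2.42 in the control, which is 30.2% and 29.5% of control for the 2 siRNAs against it. ZSCAN5B was near the floor, at 0.0331, 0.0663 and 0.0948 FPKM in the si4, si5 and si1 libraries against 0.0903 in the control. By the step estimate described below, these values rested on about 6, 17, 16 and 15 fragments in that order. Its FPKM was not lower in the culture given si1, so this library does not itself show a knockdown, though the fragments were few. The paper reported less ZSCAN5B transcript by qRT-PCR and less protein by western blot with si1. Its qRT-PCR also gave less ZSCAN5D transcript with si4, si5 and, to a lesser degree, si1. It gave more ZSCAN5B with si4, whereas the ZSCAN5B FPKM here was below control with si4. The culture given si1 is called the library labelled ZSCAN5B knockdown. Markers of HEK-293 cells (VIM, KRT8, KRT18, NEFL and NEFM) were at or above 1 FPKM in every library, and PAX2 ranged from 0.584 to 1.16. Of 8 markers of placenta, blood, liver and fibroblasts, 6 were under 0.1 FPKM in every library, HBB was at 0, and CGA and COL1A1 were at 1.102 to 5.66. Deposited FPKM summed to 546239, 539502 and 537181 in the si4, si5 and si1 libraries and to 488036 in the control. Steps between the lowest FPKM values, which stood in whole-number proportions for 70.2% of 1745 genes, placed the depths of si4, si5 and si1 near 1.09, 1.54 and 1.02 times that of the control. By this estimate the 21 members rested on about 845 to 57384 fragments each, and the standard error from counting alone was at most 0.066 on the log2 scale.

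The 21 members were higher in the siRNA libraries than in the control almost throughout, by small ratios. With the mean of si4 and si5, 20 of 21 were above control, where 46.7% of 12993 features were, and the median log2 ratio was 0.25 against −0.02 over all features. In the library labelled ZSCAN5B knockdown all 21 were above control, where 48.5% of 12921 features were, and the median was 0.30 against −0.01. The share of features above control was larger at the levels of most members, as given below. With each of the 3 siRNAs singly, 20 of 21 were above control, and 29.9% of all features were. TOMM20 was the 1 member past 1.5-fold in either comparison, where 0.677% of features were past it upward with the ZSCAN5A siRNAs and 0.844% with si1. No member was lower by more than 1.5-fold, where 3.11% and 3.17% of features were. At a lower limit of 25% above control, 7 members were higher with the ZSCAN5A siRNAs, where 5.14% of features were, and 9 with si1, where 6.7% were.

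Summed over the 22 genes, the members took 1779, 1687 and 1773 FPKM in the si4, si5 and si1 libraries and 1389.9 in the control. As a share of all FPKM in the library these were 0.326%, 0.313%, 0.330% and 0.285%. Without TOMM20 the shares were 0.290%, 0.274%, 0.290% and 0.260%, again with the control lowest. A share of the total does not depend on how libraries are scaled, whereas the FPKM values do. The total was lowest in the control, and scaling every library to the same sum of FPKM, an alternative chosen after seeing the data, lowered the median log2 ratio of all features to −0.17 with the ZSCAN5A siRNAs and −0.15 with si1. On that scale the members' median was 0.09 and 0.17, 15 of 21 and 17 of 21 were above control, where 21.4% and 26.1% of all features were, and 13 of 21 were above it with each siRNA, where 11.01% of all features were. The members then below control were TIMM8A, TIMM9, TIMM17A, TIMM22, TOMM34 and TOMM70A with the ZSCAN5A siRNAs and TIMM8A, TIMM17B, TIMM22 and TIMM44 with si1, none by more than 0.18 on the log2 scale. TOMM20 was then 0.56 above control on the log2 scale with the ZSCAN5A siRNAs, short of 1.5-fold, and 0.67 with si1, still past it.

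Level moved with the ratio over the whole table. Among all features with a mean of 20 to 50 FPKM the median log2 ratio with the ZSCAN5A siRNAs was 0.05, among those of 50 to 100 it was 0.12, and among those above 100 it was 0.20. The 9, 5 and 6 members in these ranges had medians of 0.14, 0.35 and 0.27. For si1 the features' medians were 0.05, 0.13 and 0.20 and the members' were 0.19, 0.34 and 0.33. The members were also shorter than most genes, with a median transcript of 1664 bases against 3306.5 over 12420 features with a matched length. After the median of features of similar level was taken off, a step added after seeing the data, the members' median was 0.11 with the ZSCAN5A siRNAs and 0.16 with si1, and TOMM20 was at 0.51, short of 1.5-fold, and 0.61, past it. After the same step for features of similar length and GC content the members' median was 0.16 and 0.20, and TOMM20 stayed past 1.5-fold at 0.61 and 0.70.

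**Figure D2:**
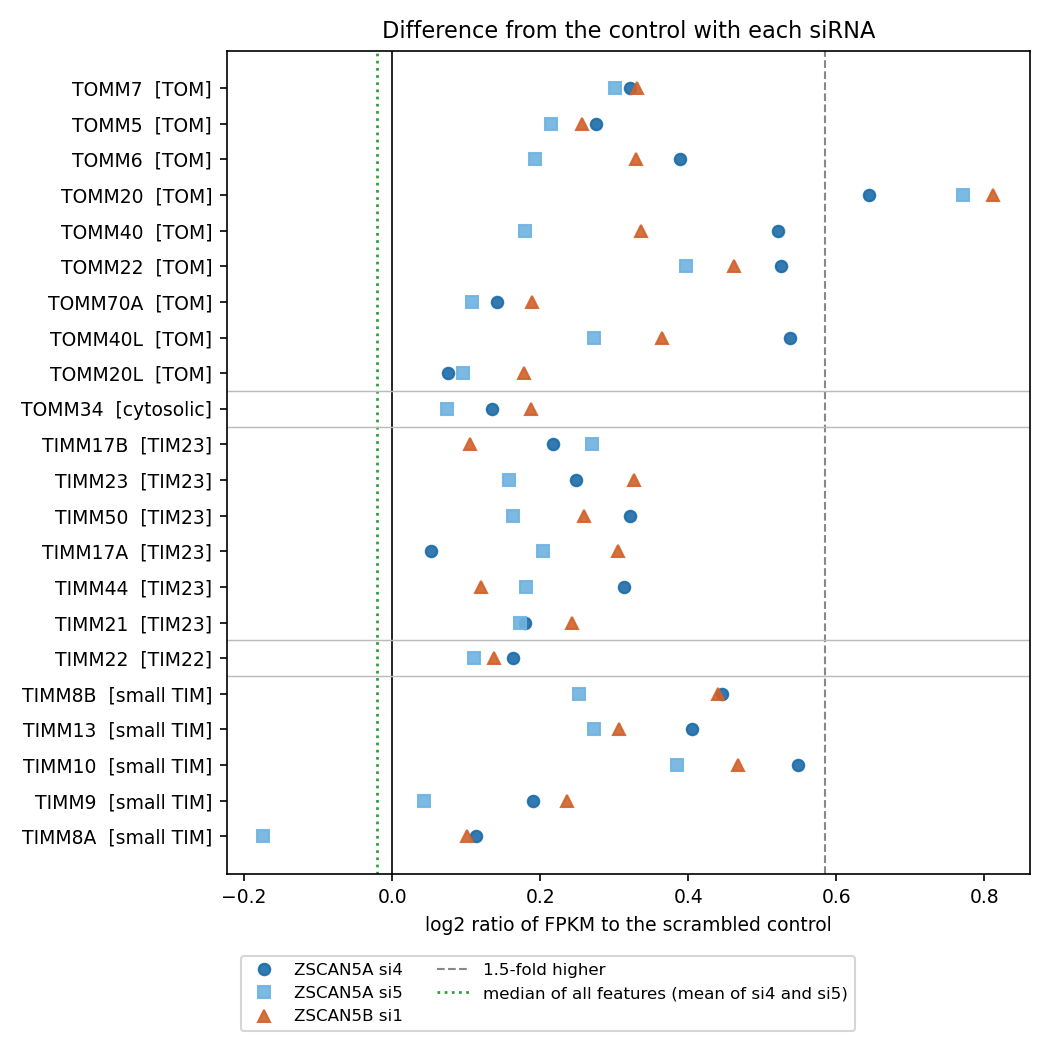
Log2 ratio of FPKM to the scrambled control for each gene with si4, si5 and si1, grouped by complex, with a dashed line at 1.5-fold and a dotted line at the median of all features for the ZSCAN5A siRNAs (−0.02). TOMM20 is the 1 gene with all 3 points past the dashed line, and the si5 point of TIMM8A, at −0.17, is the 1 point below 0.

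The receptors of the TOM complex differed widely among themselves. TOMM20, the receptor for presequence proteins (hg19 chr1:235272658-235292256, minus strand), measured 193 FPKM after si4, 211 after si5, 217 after si1 and 123 in the control. All 3 siRNA libraries stood above the control by more than they differed from each other. The log2 ratio was 0.71 for the mean of si4 and si5, a 1.64-fold difference, and 0.81 for si1, 1.76-fold, while si4 and si5 differed by 0.13. In each comparison 51 features of the whole table had a larger ratio. The small nucleolar RNA gene SNORA14B lies inside TOMM20 and was listed at 0, 2.48, 0 and 3.83 FPKM in the same order. Separately, 4 pseudogenes of TOMM20 are annotated, and its value may hold reads of these copies, which was not examined.

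TOMM22, the central receptor that hands precursors to the channel (chr22:39077954-39080766, plus strand), measured 91.9, 84.1, 88.0 and 63.9 FPKM with si4, si5, si1 and control. Its log2 ratio was 0.46 in both comparisons, short of 1.5-fold, with a gap of 0.13 between si4 and si5. It has 6 annotated pseudogenes, the most of any member, so its value too may hold reads of copies. TOMM70A, the receptor for carrier precursors, was much closer to control, at 22.5, 21.9, 23.2 and 20.4 FPKM, with log2 ratios of 0.12 and 0.19. Of the 3 receptors TOMM20 thus stood furthest from control and TOMM70A nearest, and the TOMM70A:TOMM20 ratio of FPKM was 0.116, 0.104 and 0.107 with si4, si5 and si1 against 0.165 in control. That ratio does not depend on how libraries were scaled. Its genes were the receptors furthest from and nearest to control in these same libraries. Lower values with the siRNAs follow from that choice, and the difference was not tested.

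The channel subunit TOMM40 (chr19:45394477-45406946, plus strand) measured 114, 90.1, 100.5 and 79.6 FPKM. It had the widest gap between the ZSCAN5A siRNAs of all members that reached the limit, 0.34 on the log2 scale, nearly as large as its ratio to control of 0.36. Its paralog TOMM40L was far lower, at 8.18, 6.81, 7.25 and 5.63 FPKM, and stood 0.41 and 0.36 above control. The TOMM40L:TOMM40 ratio stayed between 0.071 and 0.076 in the 4 libraries. TOMM40L overlaps NR1I3 at one end, which was at 1.04 to 1.78 FPKM, and 3 pseudogenes of TOMM40 are annotated.

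The small TOM subunits, which stabilise the complex, were the most abundant members in the control. TOMM7 measured 227, 223, 228 and 181 FPKM, and its si4 and si5 values differed by 0.02 on the log2 scale against a ratio to control of 0.31. TOMM5 was at 190.2, 182, 188 and 157 FPKM and TOMM6 at 203, 177, 194.6 and 155, and both were lowest in control. Their log2 ratios were 0.25 and 0.29 with the ZSCAN5A siRNAs and 0.26 and 0.33 with si1. TOMM34, a cytosolic cochaperone that is not a TOM subunit, was nearer to control, at 38.7, 37.1, 40.2 and 35.3 FPKM with log2 ratios of 0.10 and 0.19.

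The TIM23 genes were higher by less. TIMM23, the channel subunit, measured 107, 100.1, 112 and 89.7 FPKM, a log2 ratio of 0.20 with the ZSCAN5A siRNAs and 0.33 with si1. The near-identical copy TIMM23B is annotated on chromosome 10 at 51371390 to 51387768 and was matched to no row, so the TIMM23 value may hold reads of both. TIMM50, the receptor that meets precursors as they leave TOM, was at 86.3, 77.4, 82.7 and 69.1 FPKM, and its ratios of 0.24 and 0.26 exceeded the si4 to si5 gap of 0.16. TIMM21, which links TIM23 to TOM, was at 29.1, 29.0, 30.4 and 25.7 FPKM and had the smallest gap of all members, 0.007, beside ratios of 0.18 and 0.24. TIMM44, which anchors the import motor, was at 35.8, 32.7, 31.3 and 28.8 FPKM, with ratios of 0.25 and 0.12.

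The 2 forms of the TIM23 core subunit TIMM17 were ordered differently over the libraries. TIMM17A measured 55.7 FPKM after si4, 61.9 after si5, 66.3 after si1 and 53.7 in the control, so si4 was close to control and si1 highest. TIMM17B measured 106, 110.1, 98.3 and 91.3 FPKM, and here si1 was the siRNA library nearest to control. The TIMM17A:TIMM17B ratio was 0.524 after si4, 0.562 after si5, 0.675 after si1 and 0.588 in the control, so the ZSCAN5A libraries lay below the control and the library labelled ZSCAN5B knockdown above it. With 1 library a treatment this difference was not tested. The ratio of TIMM17A to control, 0.13, was smaller than its si4 to si5 gap of 0.15. TIMM17B overlaps PQBP1, which was at 50.3 to 61.4 FPKM and also lowest in control, and has 1 annotated pseudogene.

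TIMM22, the channel of the carrier pathway, measured 23.7, 22.9, 23.3 and 21.2 FPKM, and its log2 ratio was 0.14 in both comparisons. The small TIM chaperones that serve it spread from the highest ratios to the lowest. TIMM10 (chr11:57295936-57298232, minus strand) measured 50.6, 45.2, 47.8 and 34.6 FPKM, with a log2 ratio of 0.47 in both comparisons and a gap of 0.16. Centring on length and GC content took these ratios to 0.30 and 0.28, behind TOMM20, TOMM40L, TOMM22, TIMM50, TOMM40 and TIMM13 with the ZSCAN5A siRNAs, so its rank depends on that step. TIMM9, its partner in the same hexamer, was at 28.2, 25.5, 29.1 and 24.7 FPKM, with ratios of 0.12 and 0.24 and a gap of 0.15, and has 3 annotated pseudogenes. The TIMM9:TIMM10 ratio was therefore 0.557, 0.563 and 0.608 in the siRNA libraries and 0.714 in control.

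The other small TIM hexamer pairs TIMM8 with TIMM13. TIMM13 measured 54.2, 49.4, 50.6 and 40.9 FPKM and TIMM8B 92.6, 81.0, 92.2 and 68.0, both lowest in control, with log2 ratios of 0.34 and 0.35 with the ZSCAN5A siRNAs and 0.31 and 0.44 with si1. TIMM8A (chrX:100600644-100603957, minus strand), whose loss causes deafness-dystonia syndrome, measured 21.5, 17.6, 21.3 and 19.9 FPKM. It was lower than control with si5 and higher with si4 and si1, its ratios were −0.02 and 0.10, and its si4 to si5 gap was 0.29. The TIMM8A:TIMM8B ratio was 0.232, 0.217 and 0.231 with si4, si5 and si1 against 0.292 in control. TIMM8A had the lowest ratio to control of all members in both comparisons, so lower values follow from that and are no separate result. TIMM8B overlaps C11orf57, at 14.7 to 18.8 FPKM, and 2 pseudogenes of TIMM8B and 1 of TIMM8A are annotated. TIMM13 overlaps TMPRSS9, TIMM9 overlaps KIAA0586 and TOMM20L, and TOMM70A overlaps LNP1, and these were under 4 FPKM in every library.

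**Figure D3:**
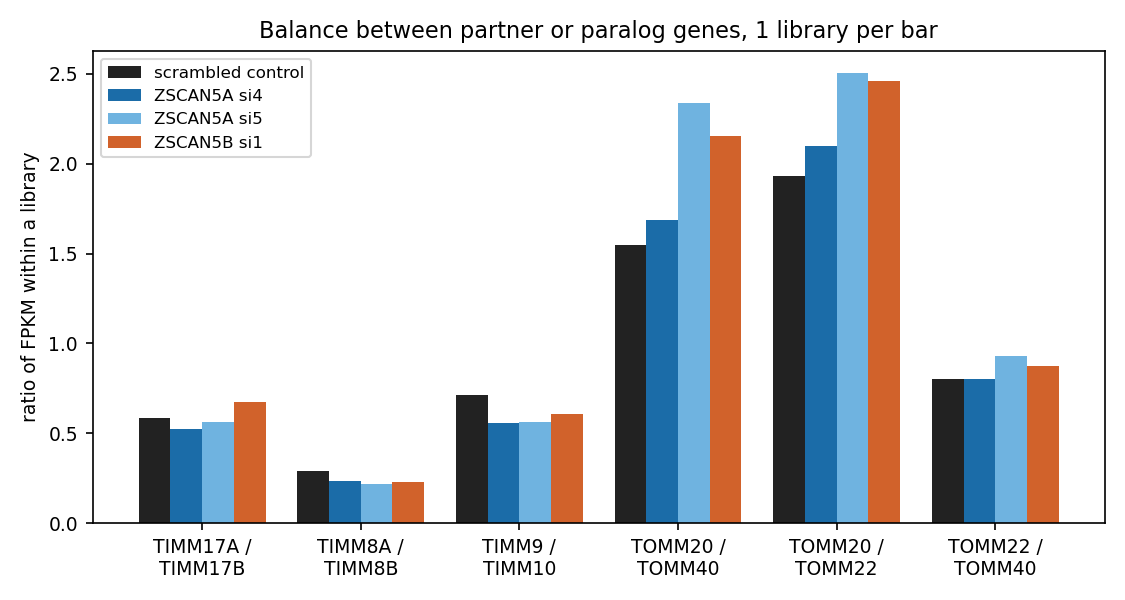
Ratio of FPKM between partner or paralog genes within a library, as bars from 0, with 1 bar for each of the 4 libraries and no error bars since each is 1 library. TOMM20 against TOMM40 and TOMM22 is higher, and TIMM9 against TIMM10 and TIMM8A against TIMM8B lower, in the 3 siRNA libraries than in the control. These differences follow from the ratios of the single genes to control and are no separate result.

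TOMM20 was also set against TOMM40 and TOMM22 within each library. As TOMM20 had the highest ratio to control of all members, values above control follow from that choice and are no separate result. The TOMM20:TOMM40 ratio was 1.69, 2.34 and 2.16 with si4, si5 and si1 against 1.55 in control, and TOMM20:TOMM22 was 2.097, 2.50 and 2.46 against 1.93. TOMM22:TOMM40 was 0.805, 0.933 and 0.876 against 0.802, so with si4 it differed little from control. In each ratio si4 was the siRNA library closest to control.

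Without the control, the siRNA libraries can be set against each other. The library labelled ZSCAN5B knockdown was higher than the mean of si4 and si5 for 14 of 21 members, where 53.8% of all features were, and the median log2 ratio was 0.02. No member was 25% higher in either of them. Of 12888 features, 468 were that much higher with si1 and 372 with the ZSCAN5A mean, so none of 21 is near the share over all features. Library si4 was higher than si5 for 18 of 21 members, where 54.6% of features were, with a median of 0.13 against 0.02 over all features, so the median was further from 0 between the 2 siRNAs to ZSCAN5A than between the 2 targets. The difference of the ZSCAN5A mean from control was larger than the si4 to si5 gap for 18 of 21 members, where 58.2% of features had this. The exceptions were TIMM8A, TIMM9 and TIMM17A. The median gap was 0.13.

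The rest of the import pathway gave 29 further genes on a list chosen with earlier results known, and all 29 reached 1 FPKM. Of these, 21 of 29 were above control with the ZSCAN5A siRNAs, where 46.7% of all features were, and 25 of 29 with si1, where 48.5% were. Their medians of 0.12 and 0.18 became −0.029 and 0.044 at an equal sum of FPKM. Above control with each siRNA were 18 of 29, where 29.9% of all features were. None passed 1.5-fold in either direction. Of all features, 0.677% passed it upward and 3.11% downward with the ZSCAN5A siRNAs, and 0.844% and 3.17% with si1. For 29 genes, none is near these shares. HSPE1, the matrix cochaperonin, was the furthest above control, at 185, 165, 195.1 and 132 FPKM, with log2 ratios of 0.41 and 0.57. HSPD1, its chaperonin partner, was at 527, 495, 582 and 425 FPKM, and GRPEL1, the nucleotide exchange factor of the import motor, was at 33.8, 30.6, 37.2 and 26.6. Each of these 3 was lowest in control.

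ROMO1, a small TIM23 subunit, and PAM16, a motor subunit, had the next highest ratios with the ZSCAN5A siRNAs, with log2 ratios of 0.36 and 0.29, from 229, 219, 220.2 and 174 FPKM for ROMO1 and 72.9, 61.7, 70.1 and 55.03 FPKM for PAM16. The lowest included MTX3, a sorting and assembly subunit, at 7.79, 6.92, 7.15 and 8.51 FPKM, and TIMM10B, listed under its older symbol FXC1, at 7.10, 7.14, 7.70 and 8.11. Both were highest in control, which no member that reached the limit was, although TIMM10B is itself a TIMM gene. TIMM29, listed as C19orf52, was at 19.1, 15.4, 19.8 and 16.2 FPKM, below control with si5 and above it with si4 and si1. AGK, a TIM22 subunit, was low with si4 alone, at 18.7 FPKM against 26.2 with si5, 26.8 with si1 and 25.4 in control. PMPCB, a subunit of the presequence protease, was at 27.6, 25.4, 28.0 and 29.7 FPKM, whereas its partner PMPCA was at 61.4, 53.9, 58.4 and 52.1.

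The members lay close to other mitochondrial genes. The median log2 ratio of 78 mitochondrial ribosomal protein genes was 0.22 with the ZSCAN5A siRNAs and 0.26 with si1, and that of the nuclear genes of oxidative phosphorylation was 0.23 over 81 genes and 0.26 over 80. With each of the 3 siRNAs, 64 of 78 ribosomal protein genes and 72 of 81 oxidative phosphorylation genes were above control, where 29.9% of all features were. For these lists only values on the deposited scale are given. These lists share the libraries with the members and were not tested against them. They contain no gene past 1.5-fold in either comparison, where the members contain TOMM20. Of all features, 0.677% were past it upward and 3.11% downward with the ZSCAN5A siRNAs, and 0.844% and 3.17% with si1.

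**Figure D4:**
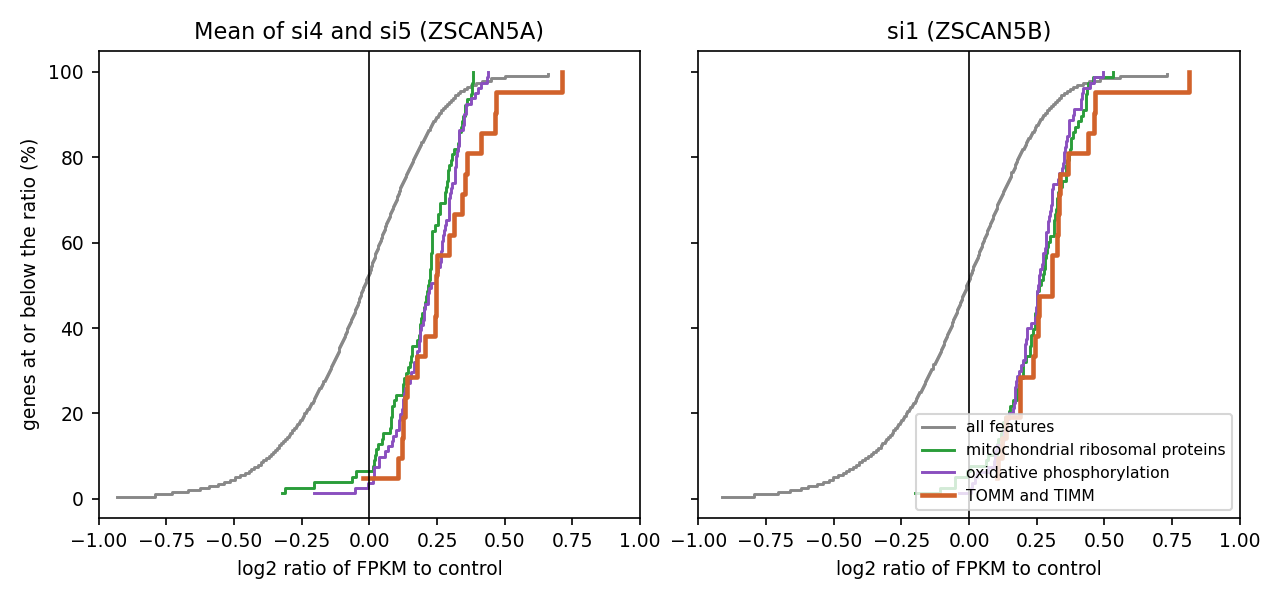
Cumulative share of genes (%) against the log2 ratio of FPKM to control, for the mean of si4 and si5 (left) and si1 (right), in all features, mitochondrial ribosomal protein genes, oxidative phosphorylation genes and the TOMM and TIMM genes. The 3 mitochondrial curves lie together to the right of all features, with medians of 0.22 to 0.25 on the left and 0.26 to 0.30 on the right.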

How the data were processed

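RNA from HEK-293 cells was sequenced in 4 libraries, 1 for each siRNA, the scrambled one included. Per the labels' processing notes the submitters used CASAVA 1.8.2, Trimmomatic 0.30, TopHat2 2.1.0 and Cufflinks 2.2.1 with hg19, and the authors deposited 1 table of FPKM values, which scale fragments by transcript length and library size. Labels and methods name different stranded kits, and whether strand was used in counting is not given in the sources used here. The table held 0 other columns of per-sample values. Of 24934 rows, 5031 were at 0 in every library, and 1 row above 1000 FPKM in a library was listed at 0 in another, so a 0 can be a failed estimate.

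Values were used as deposited. The study analysed si4 and si5 as a group, with an adjusted p-value that was not computed here in the main setting. Here the mean FPKM of si4 and si5, and si1, were each compared with the control. A feature entered at 1 FPKM or more in a library of the comparison with neither side at 0, and a ratio above 1.5-fold was counted. With 1 library a treatment no test was made, apart from an alternative with limma 3.58.1 in R 4.3.3. The members and gene lists were chosen with earlier results of these data known. All members are named. Other import genes were named if past the fold limit, or among the 3 highest or 3 lowest ratios of a comparison at 5 FPKM or more. PMPCA, a partner of a named gene, and TIMM29 were added after their values were seen.

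Lengths and GC content came from GENCODE 44 lifted to GRCh37, matched for 95.0% of 13078 features and all 22 members, and promoters from RefSeq on GRCh38.p14. Depths came from steps between FPKM values under 0.1 in whole numbers up to 40 with a tolerance of 0.05%. On simulated data the fold rule recovered 200 of 200 genes changed 3-fold among 12858 with 0 false calls, and limma recovered 200 of 200 among 12853 with 16 false calls. The simulated libraries differed from each other only by small random noise, and 3-fold lies far past the limit. The simulation therefore checks the code and says nothing on calls near 1.5-fold. Python 3.11.15, NumPy 2.4.6, pandas 2.3.3 and matplotlib 3.10.9 were used.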

Additional observations from a re-analysis of the deposited data

How the results depend on the processing

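With 1 library a treatment and 1 shared control, no setting replaces replication. TOMM20 remained past 1.5-fold with the expression limit at 0.1 or 5 FPKM, with a pseudocount of 1, with median-ratio or upper-quartile scaling, and with si4 or si5 alone for ZSCAN5A. Leaving out TIMM23 and the members that overlap another gene kept TOMM20 in, so it bears on the medians alone, which were 0.25 and 0.28. The count of members past the limit became 7 with the ZSCAN5A siRNAs and 9 with si1 at a limit of 25% above control, and 0 with the ZSCAN5A siRNAs at an equal sum of FPKM. limma on log2(FPKM + 1), with si4 and si5 as a pair against the control, gave TOMM20 a log2 difference of 0.70. The only spread in that fit is the difference between si4 and si5. It holds none for the 1 control library, so its p-values cannot decide whether a member differed from control and are not given.

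The members' median log2 ratio fell to 0.16 with the ZSCAN5A siRNAs and 0.20 with si1 after centring on length and GC content, to 0.11 and 0.16 after centring on expression level, where TOMM20, at 0.51, was no longer past 1.5-fold with the ZSCAN5A siRNAs but, at 0.61, still was with si1, and to 0.092 and 0.17 at an equal sum of FPKM, where 13 members instead of 20 were above control with each siRNA. The other import genes' medians went to −0.029, below 0, and to 0.044 at an equal sum. Their remaining values, and the median between si1 and the ZSCAN5A mean, moved by less than the spread between si4 and si5, although the latter was −0.02 against si4 alone and 0.08 against si5 alone. Centring on level or on length and GC content, and equal sums, took some members' ratios across 0, among them TIMM17A with the ZSCAN5A siRNAs and TIMM17B with si1, and si4 alone took TIMM8A above 0. Equal sums and centring on level were chosen after seeing the data, as was leaving out overlapping members. No paired analysis was possible because each treatment has 1 library.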
